A study of Mus musculus with 24 samples.

Results

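The genes described here encode ephrins and their Eph receptors, Slits and their Robo receptors, netrins and their receptors Dcc and Unc5, and the repulsive guidance molecules Rgma and Rgmb, measured in mouse hippocampus. They were found by gene symbol: a gene was a member when its symbol was that of an Eph receptor with a 1-digit number, an ephrin, Slit1 to Slit3, Robo1 to Robo4, Ntn1 to Ntn5, a netrin G, Unc5a to Unc5d, Dcc, Rgma or Rgmb. Of the 42 probes with such a symbol and no other, the one brightest on average across the arrays was kept for each gene, which gave 39 genes of the 19938 measured. Ephb1, Ntng1 and Unc5d had more than 1 probe. Ephb2 and Ntng2 were not analysed here, and Epha10, whose number has 2 digits, is counted among the partner genes instead.

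The study used 24 arrays of hippocampal RNA, 6 in each of 4 groups, from male mice of 8 to 9 weeks on a C57BL/6J-129sv mixed background. Mutant mice were homozygous FoxO6 nulls, labelled FoxO6 -/-, lacking a forkhead transcription factor, and the others were wild type (WT). Mice of the basal groups lived alone for 3 days or longer before the tissue was taken. Mice of the learning groups were handled every day and spent 10 min in the empty arena 24 h before. They were given a pair of identical objects to explore during 10 min, and were killed 60 min later. The states thus differ in handling as well as in the objects. Living alone was stated for the basal groups only, so whether housing differed is not known. The labels call the arrays biological replicates without saying whether each is a separate animal, and p-values measure only the spread between these samples. Whether arrays of both states were prepared and scanned together was not stated in the labels, so state and any such batch cannot be told apart. The null is not restricted to a tissue or a life stage in the labels.

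Eph receptors are receptor tyrosine kinases that are bound by ephrins on the surface of a neighbouring cell. Class A ephrins are held in the membrane by a lipid anchor, class B ephrins span it, and both can signal back into the cell that carries them. Slits are secreted repellents read by Robo receptors, and netrins attract growing axons through Dcc and repel them through Unc5 receptors. The same molecules remain in the adult hippocampus, where Eph receptors and ephrins sit at dendritic spines and on astrocytes around them.

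The promoters of 4 members are printed because they lie before genes that were lower after learning (Unc5a, Efna3 and Ephb6) or higher (Epha7). Each is 250 bases before to 50 bases from the annotated start, 5′ to 3′ on the gene's strand, from RefSeq on GRCm38.p6, and capitals mark the CpG dinucleotides, the sites of DNA methylation.
Unc5a, chr13:54949161-54949460, plus strand: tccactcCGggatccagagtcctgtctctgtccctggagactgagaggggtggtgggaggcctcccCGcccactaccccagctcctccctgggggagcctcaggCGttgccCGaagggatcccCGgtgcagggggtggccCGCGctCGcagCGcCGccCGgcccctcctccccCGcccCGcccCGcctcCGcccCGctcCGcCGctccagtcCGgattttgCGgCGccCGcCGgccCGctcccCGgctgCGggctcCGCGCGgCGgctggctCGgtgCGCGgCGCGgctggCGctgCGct
Efna3, chr3:89322890-89323189, minus strand: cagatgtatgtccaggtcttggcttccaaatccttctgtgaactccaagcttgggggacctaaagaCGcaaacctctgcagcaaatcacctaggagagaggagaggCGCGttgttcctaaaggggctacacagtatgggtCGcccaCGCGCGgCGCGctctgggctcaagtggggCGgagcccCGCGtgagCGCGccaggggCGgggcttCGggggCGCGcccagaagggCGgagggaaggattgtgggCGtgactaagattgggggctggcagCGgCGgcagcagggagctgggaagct
Ephb6, chr6:41605261-41605560, plus strand: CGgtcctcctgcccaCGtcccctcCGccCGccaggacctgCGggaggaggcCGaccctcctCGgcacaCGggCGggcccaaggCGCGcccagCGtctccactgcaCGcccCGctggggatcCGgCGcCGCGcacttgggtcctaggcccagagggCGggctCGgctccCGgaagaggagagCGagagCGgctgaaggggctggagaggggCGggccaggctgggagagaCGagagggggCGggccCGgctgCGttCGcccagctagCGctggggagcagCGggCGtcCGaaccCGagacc
Epha7, chr4:28812881-28813180, plus strand: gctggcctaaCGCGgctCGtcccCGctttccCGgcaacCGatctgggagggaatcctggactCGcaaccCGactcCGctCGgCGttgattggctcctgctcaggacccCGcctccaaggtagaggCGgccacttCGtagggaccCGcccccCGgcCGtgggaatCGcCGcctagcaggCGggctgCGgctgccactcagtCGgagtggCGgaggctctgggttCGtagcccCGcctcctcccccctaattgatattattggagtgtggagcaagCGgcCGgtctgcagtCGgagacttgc

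The printed windows hold 37 CpG dinucleotides for Unc5a, 22 for Efna3, 34 for Ephb6 and 28 for Epha7, on both sides of the direction of change. A window was available for 33 members, 40 windows in all because some genes have more than 1 start, and not for Dcc, Efnb3, Ntn1, Rgma, Slit1 and Unc5d. Over the 14 members with a window that were lower after learning in both genotypes, the median GC content was 65.7%, against 64.0% over the 19 other members and 52.75% over 27025 genes. The corresponding median CpG counts were 20, 24 and 7. The other members include Efna2, called lower in WT, and Slit2, Robo2 and Ntn5, called lower in the mutant.

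Short motifs of activity-linked factors and of FoxO factors were searched on both strands of the same windows. None of the motif words contains another. The binding word of EGR factors, GCGNGGGCG, occurred in 9 of the 40 member windows and in 5.55% of all 32851 windows of that length. Its fixed bases are all G or C, and member windows had a higher median GC content than all genes, as given above. No motif count was compared with windows of like GC content, so an excess or lack beyond base composition was not tested. The members with it were Efna1, Efna3, Efna5, Epha1, Epha8, Rgmb, Slit2, Slit3 and Unc5b, a group that held genes lower, higher and not called after learning. The CRE word bound by CREB, TGACGTCA, occurred in 1 member window, that of Epha2 (1.79% of all windows). The AP-1 word TGANTCA (7.81% of all windows) and the FoxO word GTAAACA (3.65% of all windows) were in 0 of the 40.

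The values are log2 intensities, so a difference of groups is a log2 ratio, and its antilog is also given as a percent of the basal level. Each probe has its own response, and levels of different genes are not compared. Foxo6 itself was lower in both mutant groups, by 0.73 at basal (adjusted p = 0.000128, limma) and by 0.63 after learning (adjusted p = 0.000833). Its means were 7.03 ± 0.20 in WT basal arrays, 6.30 ± 0.16 in mutant basal, 6.87 ± 0.15 in WT learning and 6.24 ± 0.15 in mutant learning (SD, n = 6), and the labels do not say which exons the null lacks. The hippocampal marker Prox1, of dentate granule cells, had means of 9.15 in WT basal, 8.89 in mutant basal, 8.73 in WT learning and 8.59 in mutant learning. Those of Neurod6, of pyramidal cells, were 10.07, 10.13, 10.29 and 10.22 in the same order. Each is 1 marker of a list whose members went both ways after learning. Of 12 activity-induced genes 11 were higher after learning in each genotype, with medians of 0.54 in WT and 0.60 in the mutant. Ttr, the main product of the choroid plexus that borders the hippocampus, was between 8.80 and 9.64 in WT basal arrays 4, 5 and 6 and between 11.65 and 12.11 in the other WT basal arrays, and calls that were lost without these arrays are given with that value.

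After learning, guidance genes called lower outnumbered those called higher in both genotypes. In WT, 23 of the 39 were called at an adjusted p under 0.05, 19 lower and 4 higher, where 43.3% of all genes were called, 18.2% lower and 25.1% higher. In the mutant, 24 were called, 21 lower and 3 higher, where 41.3% of all genes were called, 18.7% lower and 22.6% higher. These shares cover dim genes too, and 27 of the 39 lay above the median mean of all genes. Among genes above it, the share of members called in any direction was no higher than that of all such genes. Called lower there were 51.9% of members in WT and 59.3% in the mutant, against 31.0% and 32.7% of all such genes. The median difference was −0.14 in WT and −0.17 in the mutant for guidance genes, and 0.03 in both genotypes for all genes. The largest falls were those of Rgma, Unc5a, Efna3, Robo3 and Unc5b, each to between 63.5% and 69.4% of the basal level. Of these, Robo3 was dim after learning, as given below.

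Differences below 0 were found in 32 of 39 guidance genes in WT (44.2% of all genes) and in 30 in the mutant (43.7% of all genes). In 15 of them every WT learning array was below every WT basal array, which held for 11.4% of all genes. The mutant count was also 15, against 11.8% of all genes. In 13 members the arrays were apart in this way in both genotypes (9.07% of all genes). No member had all WT learning arrays above all basal ones (13.8% of all genes), and in the mutant only Unc5d did, on 1 of its probes (10.9% of all genes).

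**Figure D1:**
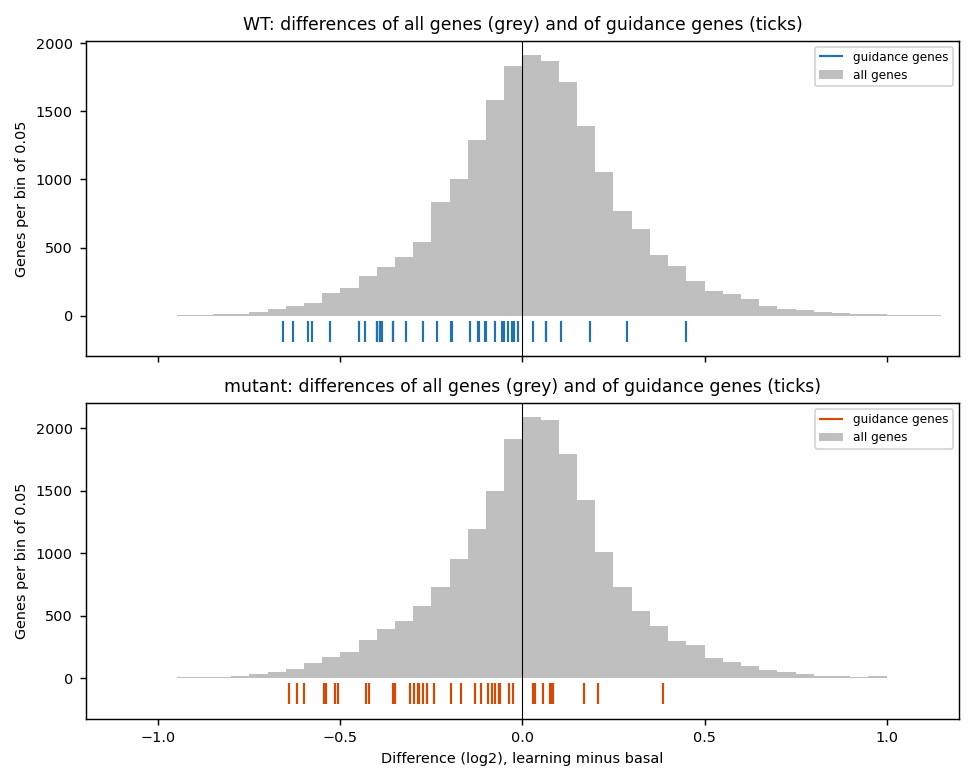
Histogram of the log2 difference between learning and basal for all 19938 genes in bins of 0.05 (grey), with 1 tick below it for each of the 39 guidance genes, WT above and mutant below. The ticks reach from −0.66 to 0.45 in WT and from −0.64 to 0.39 in the mutant, and most lie left of 0 where the histogram peaks just right of it.

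Of the class A ephrins, the ligands of EphA receptors, Efna3 changed most. In WT it ranged from 9.61 to 9.79 (median 9.71) at basal and from 8.99 to 9.26 (median 9.09) after learning. Mutant arrays ranged from 9.60 to 9.76 (median 9.64) at basal and from 8.86 to 9.18 (median 9.04) after learning. No learning array reached the lowest basal array in either genotype. The differences were −0.59 in WT (SE 0.052, adjusted p = 1.6e-10) and −0.62 in the mutant (SE 0.052, adjusted p = 5.56e-11), or 66.5% and 65.1% of basal. On astrocytes, ephrin-A3 is known as the ligand of the spine receptor Epha4.

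Efna5, a ligand that shapes topographic maps, moved the other way in the mutant. Its mutant values were 6.69 to 6.95 (median 6.82) at basal and 6.93 to 7.13 (median 7.00) after learning, with little overlap. It was higher by 0.21 there (SE 0.0639, adjusted p = 0.00959), but with the mean of the choroid plexus markers as a covariate the adjusted p was 0.0892. In WT it ranged from 6.61 to 6.97 (median 6.71) at basal and from 6.73 to 7.00 (median 6.78) after learning, a difference of 0.07 (adjusted p = 0.442). The difference between the genotypes' responses was 0.14 (interaction, unadjusted p = 0.128, adjusted p = 1).

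Efna2, another lipid-anchored ligand, fell in WT from 7.35 to 7.62 (median 7.47) at basal to 7.10 to 7.40 (median 7.30), with overlap. Its difference was −0.20 (SE 0.0744, adjusted p = 0.0332). This call was lost when WT basal array 1, 2 or 4 was left out, or array 3 or 5 of the WT learning group (adjusted p from 0.0566 to 0.0974), without WT basal arrays 4, 5 and 6 together (adjusted p = 0.0668) and with the choroid plexus covariate (adjusted p = 0.0943). In the mutant the difference was −0.08 (adjusted p = 0.456), between 7.31 to 7.66 (median 7.37) at basal and 7.10 to 7.62 (median 7.30). Efna1 and Efna4 were not called in either genotype, with differences from −0.01 to 0.07. Efna1, Efna3 and Efna4 are neighbours on chromosome 3 with no other protein-coding gene between them.

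The class B ephrins Efnb1 and Efnb3 fell in both genotypes, and Efnb2 was not called in either. Efnb3, a ligand known from the spinal cord midline and from synapses, was at 8.66 to 8.80 (median 8.74) in WT basal arrays and 8.24 to 8.35 (median 8.28) after learning. Its mutant values were 8.59 to 8.77 (median 8.70) and 8.11 to 8.40 (median 8.26). These ranges did not overlap within a genotype, and the falls were to 73.3% of basal in WT (−0.45, SE 0.0454, adjusted p = 2.2e-09) and 74.3% in the mutant (−0.43, adjusted p = 5.02e-09).

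Efnb1, which lies on the X chromosome, was at 7.54 to 7.74 (median 7.70) in WT basal arrays and 7.21 to 7.40 (median 7.28) after learning, without overlap. In the mutant it was at 7.50 to 7.90 (median 7.64) and 7.29 to 7.52 (median 7.36), where the highest learning array passed the lowest basal one. The differences were −0.39 (SE 0.059, adjusted p = 2.4e-06) and −0.27 (SE 0.059, adjusted p = 0.000325). Efnb2, the ligand of Ephb4 in developing vessels, had differences of 0.03 (WT, adjusted p = 0.718) and −0.08 (mutant, adjusted p = 0.246).

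Of the 8 EphA receptors among the members, 3 rose in WT (25.1% of all genes) and 1 in the mutant (22.6%). Called lower were 0 of the 8, against 18.2% of all genes in WT and 18.7% in the mutant. With so few receptors these counts do not set the family apart from all genes, and the WT call of Epha5 was close to the threshold. The EphA receptor Epha10, outside the symbol rule and named here after its values were seen, fell in both genotypes. It was at 7.44 to 7.61 (median 7.51) in WT basal arrays and 6.91 to 7.20 (median 7.09) after learning, and in the mutant at 7.18 to 7.57 (median 7.33) and 6.88 to 7.27 (median 7.03). Only the WT ranges were apart, and the differences were −0.45 (SE 0.0724, adjusted p = 7.75e-06) and −0.30 (SE 0.0724, adjusted p = 0.00116).

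Epha7, a receptor of class A ephrins, ranged from 10.35 to 10.57 (median 10.51) in WT basal arrays and from 10.41 to 10.79 (median 10.72) after learning. Mutant arrays ranged from 10.42 to 10.62 (median 10.52) and from 10.59 to 10.80 (median 10.66). The ranges overlapped in both genotypes, in WT through learning array 4 at 10.41, below 5 of the 6 basal arrays. The means were higher by 0.19 in WT (SE 0.0512, adjusted p = 0.00359) and 0.17 in the mutant (SE 0.0512, adjusted p = 0.00864).

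Epha3 rose in WT from 7.67 to 7.97 (median 7.88) to 7.82 to 8.33 (median 8.16), by 0.29 (SE 0.0785, adjusted p = 0.00354). Its mutant values were 7.81 to 8.14 (median 7.97) and 7.87 to 8.31 (median 8.03), a difference of 0.08 (adjusted p = 0.438). This receptor kinase thus passed the test in 1 genotype, but the difference between the responses was −0.20 (interaction, unadjusted p = 0.0756, adjusted p = 1).

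Epha5, known for ordering hippocampal projections, was at 9.97 to 10.15 (median 10.08) in WT basal arrays and 10.08 to 10.29 (median 10.18) after learning, a rise of 0.11 (SE 0.043, adjusted p = 0.0457). That call was close to the threshold. It was lost when 1 array was left out, namely array 1, 2, 3 or 5 of WT basal, 2, 3, 5 or 6 of WT learning, 1 or 4 of mutant basal, or 4 or 6 of mutant learning (adjusted p from 0.0502 to 0.131), and after a second quantile normalization the difference was 0.06 (adjusted p = 0.234). It was also lost without WT basal arrays 4, 5 and 6 (adjusted p = 0.0738), with the choroid plexus covariate (adjusted p = 0.136) and with the dentate granule covariate (adjusted p = 0.0586). In the mutant, 9.87 to 10.12 (median 9.97) became 9.96 to 10.11 (median 10.05), a difference of 0.08 (adjusted p = 0.122). The other EphA receptors, Epha1, Epha2, Epha4, Epha6 and Epha8, had differences from −0.13 to 0.06 and were not called, Epha4 with intervals of −0.13 to 0.02 in WT and −0.14 to 0.01 in the mutant (95% confidence).

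All 4 EphB receptors among the members fell in both genotypes, with no overlap between basal and learning arrays in any of them. Such a fall in both genotypes was found in 9.07% of all genes, and Ephb2 was not analysed. Ephb6, a receptor whose kinase domain is inactive, was at 8.70 to 8.76 (median 8.73) in WT basal arrays and 8.13 to 8.41 (median 8.32) after learning. In the mutant it was at 8.80 to 8.94 (median 8.86) and 8.26 to 8.45 (median 8.35). It fell to 74.1% of basal in WT (−0.43, SE 0.0461, adjusted p = 5.97e-09) and to 70.0% in the mutant (−0.51, SE 0.0461, adjusted p = 1.98e-10).

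Ephb4, the partner of ephrin-B2 in vessels, was at 6.83 to 6.95 (median 6.85) in WT basal arrays and 6.22 to 6.71 (median 6.45) after learning. Mutant arrays were at 6.83 to 7.09 (median 6.94) and 6.25 to 6.58 (median 6.46). Its differences were −0.40 (SE 0.0693, adjusted p = 1.97e-05) and −0.51 (SE 0.0693, adjusted p = 5.27e-07). The learning arrays were more widely spread than the basal ones for this gene.

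Ephb3, which acts in commissural axons and spines, was at 7.49 to 7.62 (median 7.52) and then 7.00 to 7.29 (median 7.14) in WT. Mutant arrays were at 7.50 to 7.65 (median 7.57) and then 7.10 to 7.39 (median 7.29). Every learning array was thus below every basal array, and the differences were −0.39 (SE 0.0573, adjusted p = 1.87e-06) and −0.30 (SE 0.0573, adjusted p = 8.34e-05).

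Ephb1, a receptor of class B ephrins at excitatory synapses, was at 7.97 to 8.29 (median 8.15) and then 7.61 to 7.86 (median 7.81) in WT. Mutant values were 8.18 to 8.37 (median 8.27) and 7.61 to 8.04 (median 7.87). Falls of this receptor were to 78.2% of basal in WT (−0.36, SE 0.0658, adjusted p = 4.83e-05) and 74.7% in the mutant (−0.42, adjusted p = 4.37e-06). The dimmer probe of Ephb1, at −0.13 (WT) and −0.17 (mutant), was not called (adjusted p over all probes 0.324 and 0.178).

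**Figure D2:**
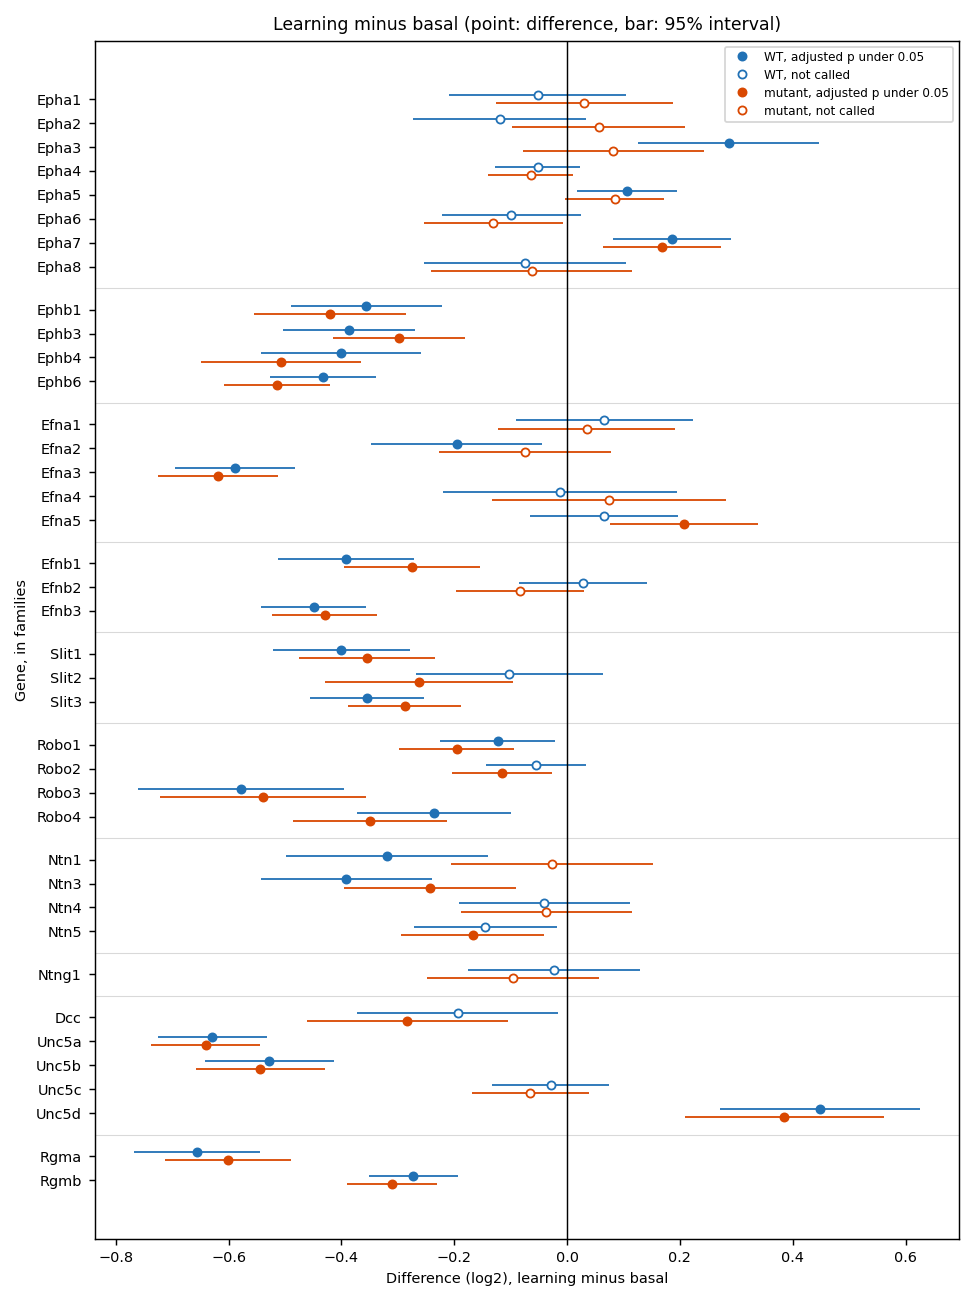
Log2 difference between learning and basal for each of the 39 guidance genes in 10 families, WT blue and mutant orange, as points with 95% confidence intervals; filled points have an adjusted p under 0.05. All 4 EphB members and both repulsive guidance molecules are filled and left of 0 in both genotypes. The filled ones of the 8 EphA members are right of 0. Unc5d is drawn from 1 of its probes, and its other probe differs by −0.30 in both genotypes.

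Slit1 and Slit3 fell in both genotypes. Slit1, a repellent made by neurons, was at 9.51 to 9.75 (median 9.68) in WT basal arrays and 9.09 to 9.36 (median 9.30) after learning. Its mutant values were 9.65 to 9.85 (median 9.75) and 9.10 to 9.51 (median 9.44). The ranges were apart in both genotypes, with differences of −0.40 (SE 0.0591, adjusted p = 1.8e-06) and −0.35 (SE 0.0591, adjusted p = 1.16e-05).

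Slit3 was likewise lower in every learning array. It was at 8.57 to 8.75 (median 8.64) and 8.15 to 8.43 (median 8.32) in WT, and at 8.57 to 8.77 (median 8.66) and 8.33 to 8.47 (median 8.35) in the mutant. This secreted ligand fell to 78.2% of basal in WT (adjusted p = 6.32e-07) and 81.9% in the mutant (adjusted p = 1.61e-05). Slit2 passed the test in the mutant and not in WT. Its mutant values went from 8.83 to 9.18 (median 9.07) to 8.42 to 8.97 (median 8.79), a difference of −0.26 (SE 0.0814, adjusted p = 0.0101). Its WT values were 8.61 to 8.93 (median 8.73) and 8.46 to 8.88 (median 8.67), a difference of −0.10 (adjusted p = 0.333), and the interaction was −0.16 (unadjusted p = 0.176, adjusted p = 1).

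Among the Robo receptors, Robo3 had the largest fall. This receptor, needed for axons to cross the midline, was at 6.51 to 6.88 (median 6.68) in WT basal arrays and 5.82 to 6.29 (median 6.13) after learning. Its mutant values were 6.42 to 6.71 (median 6.54) and 5.74 to 6.21 (median 6.02). The falls, to 67.0% of basal in WT (−0.58, SE 0.0893, adjusted p = 3.61e-06) and 68.8% in the mutant (−0.54, adjusted p = 1.06e-05), left no overlap. Both learning medians lay below the array medians over all probes, 6.16 to 6.30, so the probe of this gene was dim.

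Robo4, the Robo of vessel walls, was at 6.45 to 6.57 (median 6.49) in WT basal arrays and 6.13 to 6.57 (median 6.22) after learning, with 1 learning array up among the basal ones. Mutant arrays were at 6.45 to 6.62 (median 6.52) and 6.03 to 6.28 (median 6.21), without overlap. The differences were −0.24 (SE 0.0668, adjusted p = 0.00479) and −0.35 (SE 0.0668, adjusted p = 7.85e-05), and the first had an adjusted p of 0.0597 without WT basal arrays 4, 5 and 6. The learning medians of Robo4 lay within the range of the array medians over all probes, 6.16 to 6.30, so its probe was dim too. Robo3 and Robo4 are adjacent on chromosome 9.

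Robo1, a Slit receptor of forebrain axons, was at 9.31 to 9.57 (median 9.45) in mutant basal arrays and 9.19 to 9.27 (median 9.24) after learning, a fall of 0.20 without overlap (SE 0.0499, adjusted p = 0.00194). In WT it was at 9.22 to 9.45 (median 9.31) and 9.02 to 9.31 (median 9.23), a difference of −0.12 (adjusted p = 0.0457). The WT call was lost on leaving out array 1, 3, 4 or 6 of WT basal, array 1, 2, 4 or 5 of WT learning, or array 3 of mutant basal (adjusted p from 0.0502 to 0.15), and with the choroid plexus covariate (adjusted p = 0.0922). Robo2, its neighbour on chromosome 16, was at 9.25 to 9.44 (median 9.37) and 9.15 to 9.35 (median 9.26) in the mutant, −0.12 (SE 0.0434, adjusted p = 0.0335), and that call was lost without mutant basal array 1, 4 or 6 or mutant learning array 3, 4 or 6 (adjusted p from 0.0508 to 0.0944). Its WT values, 9.29 to 9.40 (median 9.31) and 9.15 to 9.39 (median 9.26), gave −0.06 (adjusted p = 0.325).

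Netrins fell in part. Ntn3 was at 6.81 to 7.10 (median 7.07) in WT basal arrays and 6.56 to 6.75 (median 6.62) after learning, without overlap. Mutant values were 6.87 to 7.10 (median 6.97) and 6.48 to 6.95 (median 6.71), with overlap. This secreted netrin had a WT difference of −0.39 (SE 0.0743, adjusted p = 6.91e-05) and a mutant difference of −0.24 (SE 0.0743, adjusted p = 0.00886).

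Ntn1, the netrin that attracts commissural axons through Dcc, was at 6.57 to 7.03 (median 6.84) in WT basal arrays and 6.33 to 6.70 (median 6.47) after learning. Mutant values were 6.46 to 7.15 (median 6.81) and 6.63 to 6.85 (median 6.78). The WT difference was −0.32 (SE 0.0875, adjusted p = 0.00353) and the mutant difference −0.03 (adjusted p = 0.844). Ntn1 had the smallest unadjusted p of the 39 for a difference between the genotypes' responses, 0.29 (SE 0.124, unadjusted p = 0.0245), and its adjusted p was 1.

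Ntn5 was at 6.44 to 6.57 (median 6.52) and 6.25 to 6.45 (median 6.33) in the mutant, −0.17 (SE 0.0617, adjusted p = 0.0293), and at 6.42 to 6.56 (median 6.45) and 6.08 to 6.47 (median 6.35) in WT, −0.14 (adjusted p = 0.0579). The mutant call was lost without mutant basal array 2, 4 or 5 or mutant learning array 1 or 4 (adjusted p from 0.0509 to 0.0721). Ntn4, a netrin of basement membranes, and Ntng1, a lipid-anchored relative that binds Lrrc4c, were not called. Their differences were all between −0.10 and −0.02, and the second probe of Ntng1 differed by 0.08 (WT) and 0.12 (mutant).

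Of the netrin receptors, Unc5a changed most and Unc5b nearly as much. Unc5a, which turns netrin into a repellent, was at 9.24 to 9.51 (median 9.32) in WT basal arrays and 8.60 to 8.81 (median 8.71) after learning. In the mutant it was at 9.21 to 9.47 (median 9.30) and 8.65 to 8.73 (median 8.67). A wide gap separated the states in both genotypes, with falls to 64.7% of basal in WT (−0.63, SE 0.0473, adjusted p = 6.05e-12) and 64.1% in the mutant (−0.64, adjusted p = 4.03e-12). In WT, 135 of the 19938 genes had a difference as low or lower, and in the mutant 151.

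Unc5b, present in vessels as well as in neurons, was at 7.36 to 7.55 (median 7.47) in WT basal arrays and 6.85 to 7.01 (median 6.93) after learning. Mutant values were 7.25 to 7.53 (median 7.41) and 6.74 to 6.96 (median 6.86). States did not overlap, and the differences were −0.53 (SE 0.0559, adjusted p = 5.4e-09) and −0.54 (SE 0.0559, adjusted p = 2.93e-09). Dcc, the attractive netrin receptor, was at 8.35 to 8.62 (median 8.43) and 7.85 to 8.38 (median 8.17) in the mutant, −0.28 (SE 0.0872, adjusted p = 0.00936). Its WT values of 8.17 to 8.73 (median 8.39) and 7.97 to 8.35 (median 8.24) gave −0.19 (adjusted p = 0.0727), with an interaction p that was 1 after adjustment. Unc5c had intervals of −0.13 to 0.07 in WT and −0.17 to 0.04 in the mutant (95% confidence) and was not called.

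Unc5d, the Unc5 receptor that also binds the adhesion protein Flrt2, was measured by probes that moved in opposite directions. On the brighter probe WT arrays were at 7.84 to 8.50 (median 8.14) at basal and 8.34 to 8.72 (median 8.64) after learning, and mutant arrays at 8.02 to 8.41 (median 8.27) and 8.46 to 8.83 (median 8.66). That probe was higher by 0.45 in WT (SE 0.0865, adjusted p = 8.33e-05) and 0.39 in the mutant (SE 0.0865, adjusted p = 0.00053). On the other probe WT arrays went from 7.86 to 8.43 (median 7.99) at basal to 7.55 to 8.01 (median 7.72), and mutant arrays from 8.00 to 8.17 (median 8.02) to 7.69 to 7.85 (median 7.71), a difference of −0.30 in each genotype (adjusted p over all probes 0.00383 and 0.00428). The mean of both probes gave differences of 0.07 (WT, adjusted p = 0.468) and 0.04 (mutant, adjusted p = 0.69). The gene as a whole therefore has no settled direction here, and the counts of members called higher include it on 1 probe.

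**Figure D3:**
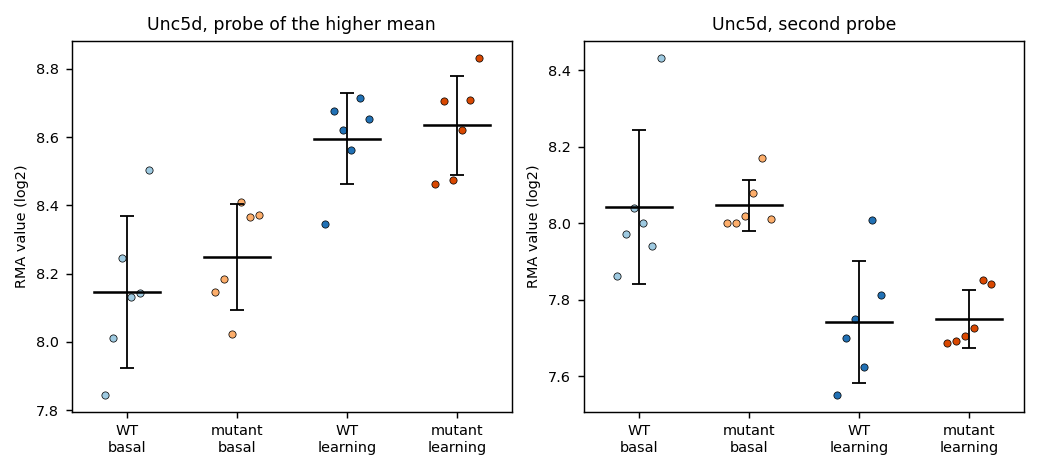
Log2 RMA values of the 2 Unc5d probes in every array (points), with mean (bar) and SD (whisker, n = 6) per group; each panel has its own axis, which does not start at 0. The brighter probe is higher after learning in both genotypes, at means of 8.60 and 8.64 against 8.15 and 8.25, and the second probe is lower, at 7.74 and 7.75 against 8.04 and 8.05.

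Both repulsive guidance molecules, lipid-anchored ligands of neogenin that also bind bone morphogenetic proteins, fell in both genotypes. Rgma was at 8.40 to 8.53 (median 8.51) in WT basal arrays and 7.70 to 7.97 (median 7.82) after learning. Its mutant values were 8.49 to 8.70 (median 8.56) and 7.86 to 8.17 (median 7.94). The gap between states was wider than the spread within any group, and the differences were −0.66 in WT (63.5% of basal, SE 0.0545, adjusted p = 4.54e-11) and −0.60 in the mutant (65.9%, adjusted p = 2.49e-10). In WT, 97 of all genes had a difference as low or lower.

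Rgmb was at 9.35 to 9.44 (median 9.37) and 9.00 to 9.19 (median 9.13) in WT, and at 9.42 to 9.55 (median 9.47) and 9.06 to 9.23 (median 9.17) in the mutant. It too had no overlap of states. Its falls were smaller than those of Rgma, to 82.8% of basal in WT (−0.27, SE 0.0389, adjusted p = 1.07e-06) and 80.7% in the mutant (−0.31, adjusted p = 1.21e-07).

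**Figure D4:**
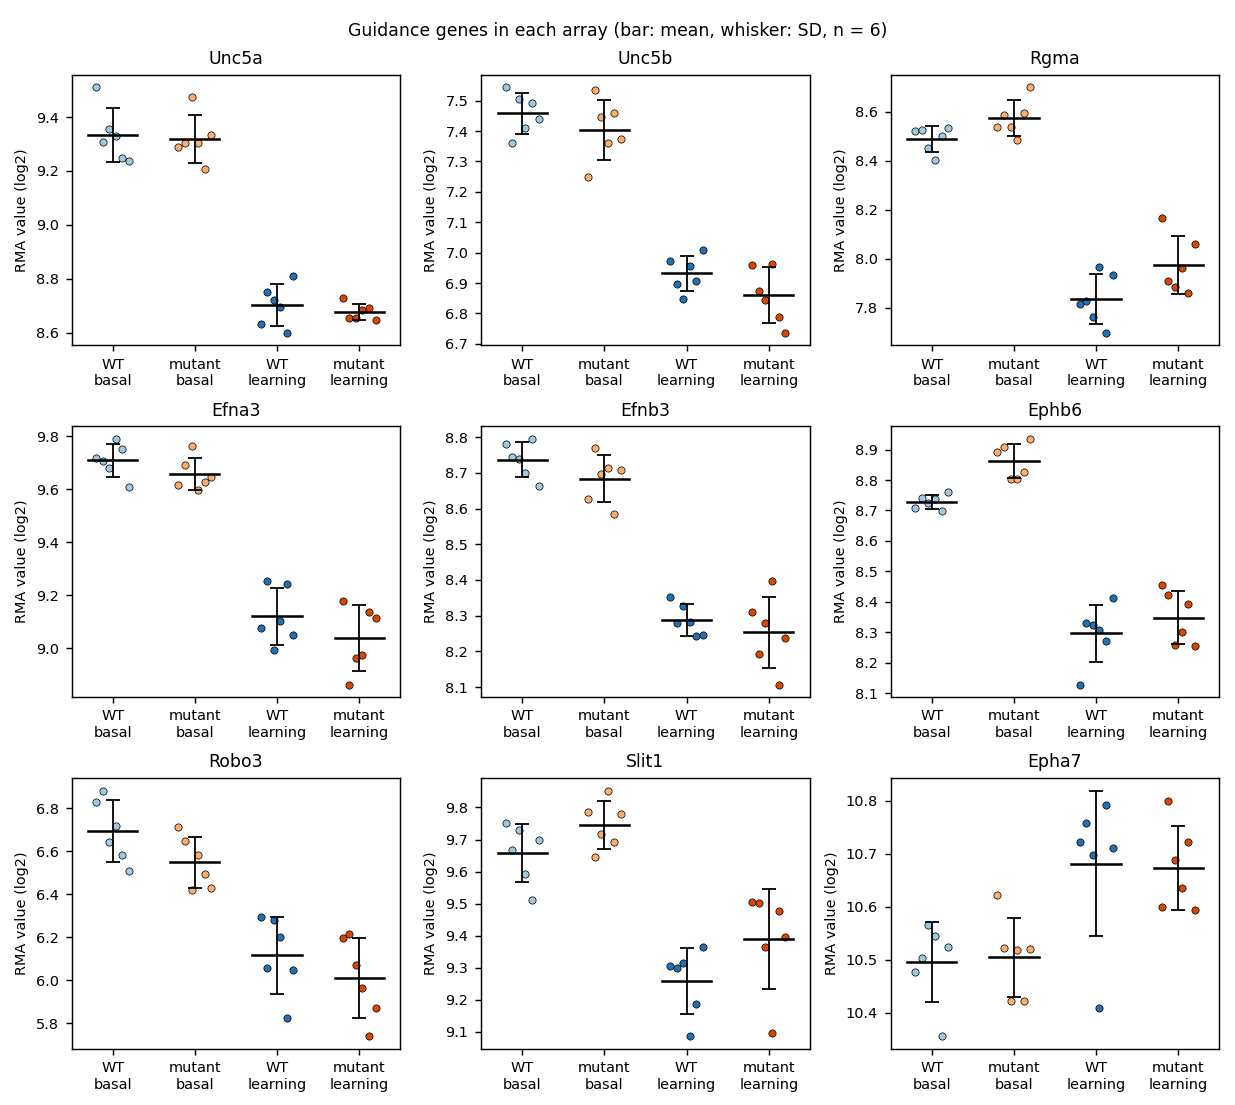
Log2 RMA value of 9 guidance genes in each array (points), with the mean (bar) and SD (whisker, n = 6) of each group; each panel has its own axis, which does not start at 0. In the 8 panels other than Epha7 all 6 learning arrays of a genotype are below its 6 basal arrays, and in the panel of Epha7 they lie mostly above them.

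Of 28 members called in either genotype (49.9% of all genes), 19 were called in both, all in 1 direction, which is 82.6% of the WT calls and 79.2% of the mutant calls. Over all genes the shares were 80.0% and 84.0%. Lower in both were 17 members, Efna3, Efnb1, Efnb3, the EphB members, Ntn3, Rgma, Rgmb, Robo1, Robo3, Robo4, Slit1, Slit3, Unc5a and Unc5b, where 15.7% of all genes were. Higher in both were Epha7 and, on its brighter probe, Unc5d, where 19.0% of all genes were. Efna2, Epha3, Epha5 and Ntn1 were called in WT alone, and Dcc, Efna5, Ntn5, Robo2 and Slit2 in the mutant alone. Across the 39 genes the WT and mutant differences had a Pearson r of 0.924 and a Spearman rho of 0.913, and across all genes r was 0.921; the genotypes share no arrays here, but genes within an array share its processing.

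The difference between the genotypes' responses was tested directly as the interaction. It called 0 of the 39 members and 0% of all genes. At an unadjusted p under 0.05 it held 1 member, Ntn1, and 2.56% of all genes. After Ntn1 the smallest p-values were those of Epha3 and of Epha2, at 0.18 (unadjusted p = 0.108), all with an adjusted p of 1. With 6 arrays per group the 95% interval of the interaction reached from 0.04 to 0.55 for Ntn1 and from −0.43 to 0.02 for Epha3.

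No guidance gene passed the test between mutant and WT at basal, where limma called 0 of 39 members and 0.1% of all genes. At an unadjusted p under 0.05 there were 4 members (4.5% of all genes), and at an exact permutation p under 0.05 there were 6 (5.58% of all genes). The member with the smallest p was Slit2, with 8.61 to 8.93 (median 8.73) in WT and 8.83 to 9.18 (median 9.07) in the mutant, a difference of 0.28 (SE 0.0814, adjusted p = 0.486). Next was Ephb6, whose mutant basal arrays all lay above the WT basal arrays (0.431% of all genes had groups that did not overlap). Its difference was 0.13 (SE 0.0461, adjusted p = 0.794). Epha5 differed by −0.10 (SE 0.043, adjusted p = 1). WT basal arrays 4, 5 and 6 enter this comparison, and without them 0 members were called too.

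After learning, limma again called 0 of the 39 between genotypes (0.0752% of all genes). The unadjusted p was under 0.05 for 5 members (7.33% of all genes), and the exact permutation p for 4 (5.64% of all genes). Efna5 was higher in the mutant by 0.21 (SE 0.0639, adjusted p = 0.389), Ntn1 by 0.26 (SE 0.0875, adjusted p = 0.482), and Epha5 was lower by 0.12 (SE 0.043, adjusted p = 0.506). The ranges given above overlap for all 3 genes. Over the 39 members the mutant minus WT difference ran from −0.12 to 0.26 with a median of 0.03, against 0.00 for all genes.

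Over both states 0 members were called as well (0.391% of all genes), and 7 had an unadjusted p under 0.05 (8.86% of all genes). The smallest p-values belonged to Epha5, −0.11 (SE 0.0304, adjusted p = 0.141), Slit2, 0.20 (SE 0.0575, adjusted p = 0.203), and Efna5, 0.13 (SE 0.0452, adjusted p = 0.309). Leaving out mutant basal array 2 brought Epha5 to an adjusted p of 0.0395, and leaving out mutant learning array 3 brought Slit2 to 0.0352. Epha8, Epha2 and Epha7 lie on chromosome 4 with Foxo6, at 16.7, 21.0 and 91.5 Mb from it, and none of them was called between genotypes. Intervals for the mutant minus WT difference of Unc5a were −0.11 to 0.08 at basal and −0.12 to 0.07 after learning (95% confidence).

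**Figure D5:**
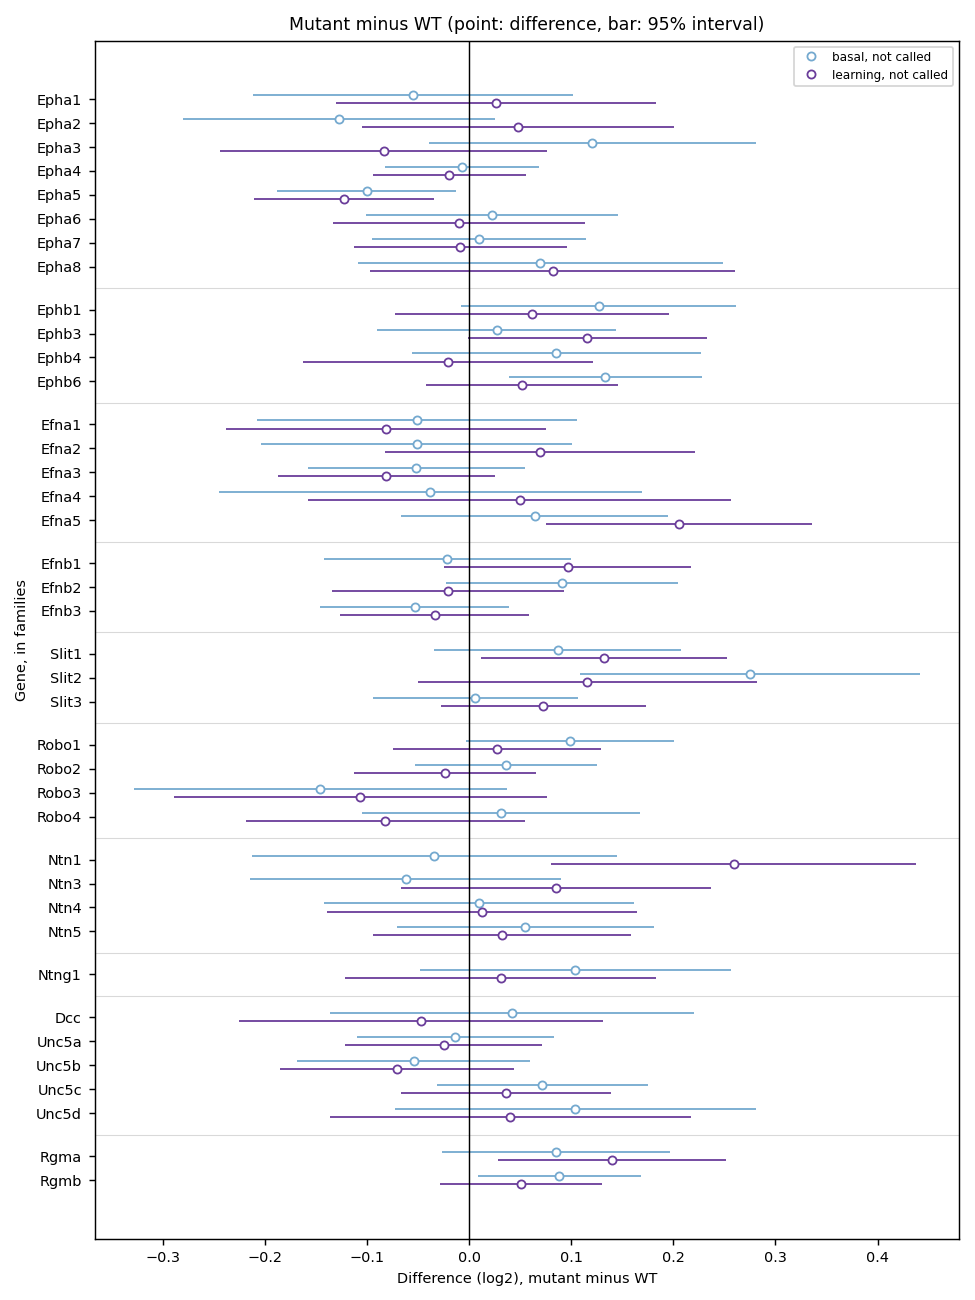
Log2 difference between mutant and WT for each of the 39 guidance genes at basal (light blue) and after learning (purple), as points with 95% confidence intervals; open points mark an adjusted p of 0.05 or higher, which all are. The points run from −0.15 to 0.28 at basal and from −0.12 to 0.26 after learning.

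Genes that work with these ligands and receptors were taken from a list of 51, of which 46 were measured. In WT 11 were higher (23.9%, against 25.1% of all genes) and 20 lower (43.5%, against 18.2%) after learning. In the mutant 11 were higher (23.9%, against 22.6% of all genes) and 16 lower (34.8%, against 18.7%). The medians were −0.08 and −0.07. A share called lower above that of all genes was thus not particular to the 39 guidance genes. The shares of all genes cover dim genes too. Among genes above the median mean, 31.0% were called lower in WT and 32.7% in the mutant. Whether the partners exceed genes of like brightness was not tested. By p-value, the first of the falls was Dscaml1, an adhesion molecule related to Dscam (−0.61 in WT, SE 0.054, and −0.67 in the mutant). The next 2, in either order by genotype, were Lrrc4, an adhesion protein that binds netrin G (−0.41 and −0.43), and Sipa1l1, a regulator of Rap at spines (−0.35 and −0.41). Gpc1, a heparan sulfate carrier that binds Slits, followed in WT with a larger fall, by 0.53, and Kalrn, an exchange factor downstream of EphB receptors, fell by 0.30 in the mutant. The adjusted p-values of these falls lay between 2.72e-11 and 3.46e-07.

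Of the rises, the smallest p-values were those of Sdcbp, a PDZ protein that binds class B ephrins (0.39 in both genotypes), and of Rac1, a small GTPase of the actin skeleton (0.27 in WT and 0.30 in the mutant). Nck1, an adaptor of Eph and netrin signalling, rose more than Rac1 in WT, by 0.38, and so did the Unc5 ligand Flrt2, by 0.33, both with a larger p. In the mutant the next were Cdc42, a relative of Rac1, at 0.25, and the receptor Bmpr1b at 0.27. The adjusted p-values of these rises lay between 7.79e-09 and 0.000142. Between genotypes 0 of the 46 were called in either state or over both.

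Lower values in whole tissue can mean fewer cells of a type or less RNA per cell, which cannot be told apart here. Marker lists of cell types were therefore read beside the guidance genes, counting markers called higher and lower after learning, WT first. Astrocyte markers had 2 higher and 6 lower of 10, then 1 higher and 7 lower, and precursors of oligodendrocytes had 1 higher and 4 lower of 8, then 0 and 5. Endothelial markers had 0 higher and 2 lower of 9, then 0 and 4. Pyramidal markers had 2 higher and 6 lower of 12, then 1 and 6. Interneuron markers had 7 higher and 6 lower of 18, then 5 and 8, and dentate granule markers 4 higher and 2 lower of 12, then 4 and 4. Oligodendrocyte markers had 2 higher and 2 lower of 9, then 3 and 3, microglia markers 4 higher and 1 lower of 9, then 3 and 2, and mural and meningeal markers 3 higher and 3 lower of 10, then 3 and 4. Markers of thalamus had 2 higher and 3 lower of 9, then 2 and 2, and those of neocortical layers 4 higher and 2 lower of 12, then 2 and 2. The part of these cell types in the falls of guidance genes was not tested. Between mutant and WT at basal, 2 of 12 dentate granule markers and 16 of 18 interneuron markers had differences above 0. The medians were −0.17 and 0.11, with 1 dentate granule marker called lower and 0 interneuron markers called. Over both states 4 dentate granule markers were called lower and 0 higher. The part of these cell types in the genotype comparisons was not tested.

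Choroid plexus markers had 0 higher and 1 lower of 15 in WT, then 0 and 5 in the mutant, with median differences of −0.22 and −0.25. Their mean per array ran from 5.88 to 6.86 in WT basal arrays, from 6.41 to 6.87 in mutant basal, from 6.03 to 6.25 in WT learning and from 5.96 to 6.79 in mutant learning. With that mean as a covariate 20 members were called in WT and 23 in the mutant, and without WT basal arrays 4, 5 and 6 the counts were 21 and 24. Unc5a, Efna3 and Rgma were called lower in both genotypes under these alternatives. With the mean of the dentate granule markers as a covariate the counts were 23 and 26. The shares of all genes called under these settings are not given here, so these counts do not set the members apart from other genes.

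Members lower in both genotypes had a median gene span of 24.4 kb (n = 17), and the other members 166 kb (n = 22). Across the 39 members the difference after learning correlated with the log span with a Pearson r of 0.383 in WT and 0.271 in the mutant, and across the 33 with a promoter window it correlated with GC content with an r of −0.196 and −0.14. The points share the arrays and their processing and are given as a description only.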

How the data were processed

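The authors deposited 1 table of log2 intensity values for 24 arrays, made with RMA per the submitters' processing notes, a method of background correction, quantile normalization and probe summarisation. Its version and the probe-set definition were not given in the sources used here. No depth applies, and the number of arrays limits precision. Array medians lay between 6.16 and 6.30, arrays of a group correlated at 0.991 to 0.997, and no pair was identical.

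By the platform annotation 21789 of 35511 probes carry 1 gene symbol, and these gave 19938 genes, 1 probe each, with no filter on dim genes. All 39 guidance genes matched the RefSeq gene table by Entrez identifier. One linear model in R 4.3.3 with limma 3.58.1 gave each of the 4 groups a mean (20 residual degrees of freedom, 29.0 after eBayes with a mean-variance trend), and 6 comparisons were tested, two-sided. Adjustment followed Benjamini and Hochberg across the genes of a comparison, with calls at an adjusted p under 0.05. SEs and 95% intervals are limma's. Exact permutation tests ran over all 924 assignments of 12 arrays, with a smallest p of 0.00216. The code was tested on simulated data.

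The members and the lists of partner and marker genes were chosen with earlier results of these data known. Members called in any comparison were given in full, the 3 with the smallest p where none was called, and up to 4 partners per direction. Same-numbered arrays of different groups deviated together no more than others (mean r 0.01, −0.30 to 0.45 over 36 pairs), so numbers were not taken as pairs.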

Additional observations from a re-analysis of the deposited data

Results flagged for a closer look

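In each of the 156 sets of 6 arrays (39 genes in 4 groups), the highest and lowest array was set against the nearest of the others. In 8 sets the gap was over 0.625 of the range, where chance gives about 1 in 20, or 7.8 sets.

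Efnb1 was lowest in WT basal array 3 at 7.54, against 7.66 to 7.74 in the others. Ntn3 was lowest in WT basal array 4 at 6.81 (others 7.06 to 7.10), in an array that still lay above all WT learning arrays, whose highest was 6.75. Ephb4 was highest in WT basal array 5 at 6.95 (others 6.83 to 6.86), as was Ntn4 in the same array at 7.36 (others 7.07 to 7.17). Ntn5 was highest in WT basal array 2 at 6.56 (others 6.42 to 6.46). Epha7 was lowest in WT learning array 4 at 10.41 (others 10.70 to 10.79), which is the array that overlaps the basal range of this gene. Slit1 was lowest in mutant learning array 4 at 9.10 (others 9.37 to 9.51), and Slit3 was highest in mutant learning array 1 at 8.47 (others 8.33 to 8.38). No array held more than 2 of the 8.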

How the results depend on the processing

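The count of members called after learning was 23 in WT, 20 to 24 with any 1 array left out and 18 to 24 under 15 other settings. In the mutant it was 24, 22 to 25 and 18 to 26. Of 47 calls of single genes, 38 held under every setting that tested the gene, and 0 reversed. No setting used the second probe of Unc5d alone, which moved the other way, so a reversal of that gene could not appear. Between genotypes at basal, after learning and in the interaction it was 0 throughout. Over both states it was 0 to 1 with any 1 array left out, and 1 after a second quantile normalization (Epha5, −0.11, adjusted p = 0.0412). With the replicate number as a block the counts were 22 in WT (43.3% of all genes) and 24 in the mutant (41.4%). Under that setting Robo1 in WT was lost (adjusted p = 0.0513). After seeing the data, 2 settings were added: leaving out WT basal arrays 4, 5 and 6, and a correction for promoter GC content, which tested 33 members and called 18 and 19. Where no share of all genes is given, the counts in this section do not set the members apart from other genes. A filter to genes above the median mean tested 27 members and called 18 (66.7%) in each genotype, where 68.3% of all such genes were called in WT and 66.9% in the mutant; lower were 14 members in WT (31.0% of all such genes) and 16 in the mutant (32.7%). The call of Unc5d was lost in both genotypes when its probes were averaged.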
